A study of Mus musculus with 9 samples.

Results

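The AP-1 and EGR immediate early factors are 10 transcription factor genes, chosen by symbol from the 46095 symbols of a table of counts. They were 4 genes of the Fos family (Fos, Fosb, Fosl1, Fosl2), 3 of the Jun family (Jun, Junb, Jund) and 3 of the EGR family (Egr1, Egr2, Egr3). RNA was sequenced from bone marrow-derived macrophages, which are grown in culture from marrow precursors, of wild type Balb/c mice aged 6 weeks. The 9 libraries formed 3 groups of 3: macrophages given LPS plus BHB, macrophages given LPS, and control macrophages. Lipopolysaccharide (LPS) comes from the bacterial outer membrane and is sensed through Toll-like receptor 4. Beta-hydroxybutyrate (BHB) is a ketone body. The labels give no dose and no time, and no group received BHB without LPS. Whether the replicates are separate cultures or animals is not labelled, and p-values then measure only the spread between these samples, which may be technical.

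Immediate early genes are transcribed soon after a stimulus from promoters that need no newly made protein, and their transcripts are usually short-lived. Fos and Jun proteins are basic leucine zipper factors that pair to form AP-1, which binds the motif TGANTCA; Fos proteins need a Jun partner, while Jun proteins can also pair with each other. EGR proteins are zinc finger factors that bind GC-rich motifs such as GCGNGGGCG. In macrophages, MAP kinase signalling from Toll-like receptors and growth factor receptors feeds both families.

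The promoters of Fosl2, Fos and Egr2 are shown because these genes had the largest called log2 fold changes among the members in LPS+BHB against LPS. RefSeq windows (GRCm38.p6, 250 bases before to 50 after a start site) were matched for 7 of the 10 members. Capitals mark matches on either strand to any of 4 motifs, which are TGACGTCA (the cyclic AMP response element), TGANTCA, GCGNGGGCG and the CArG box bound by serum response factor.
Fosl2 (chr5:32136222-32136521, plus strand): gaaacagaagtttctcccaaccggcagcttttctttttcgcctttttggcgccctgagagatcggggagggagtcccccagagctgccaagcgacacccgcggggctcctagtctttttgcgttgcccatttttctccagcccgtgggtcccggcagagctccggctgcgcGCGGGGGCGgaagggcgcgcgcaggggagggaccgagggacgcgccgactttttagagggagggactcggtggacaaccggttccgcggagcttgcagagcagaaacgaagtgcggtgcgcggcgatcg
Fos (chr12:85473640-85473939, plus strand): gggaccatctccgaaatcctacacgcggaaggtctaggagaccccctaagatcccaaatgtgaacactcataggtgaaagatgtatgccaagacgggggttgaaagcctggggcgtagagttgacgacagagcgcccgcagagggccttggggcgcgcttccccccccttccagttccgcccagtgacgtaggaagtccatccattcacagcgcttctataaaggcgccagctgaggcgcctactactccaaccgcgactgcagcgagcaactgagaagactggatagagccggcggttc
Egr2 (chr10:67537620-67537919, plus strand): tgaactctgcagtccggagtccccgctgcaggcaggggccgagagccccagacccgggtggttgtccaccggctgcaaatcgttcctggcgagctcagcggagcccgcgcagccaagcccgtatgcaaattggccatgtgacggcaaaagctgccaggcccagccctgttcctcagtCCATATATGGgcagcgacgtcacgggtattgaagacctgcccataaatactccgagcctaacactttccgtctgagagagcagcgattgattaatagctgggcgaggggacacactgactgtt
The capitals in the Fosl2 window are a GCGNGGGCG match 79 to 71 bases before the start site. Those in the Egr2 window are a CArG box 73 to 64 bases before the start site. The Fos window held 0 matches to the motifs searched, and sequence outside the windows was not searched. GCGNGGGCG occurred in 5.55% of the 32851 windows in the table and the CArG box in 1.63%. Of the 5 Egr2 windows 4 held a CArG box, which was the same box in 3 windows that overlap. TGACGTCA occurred in 1.79% of all windows and TGANTCA in 7.81%. Each occurred in 0 of the 11 windows of these 7 members, which says only that these letters are not in those windows.

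Total counts ranged from 29633411 to 32798920 per library, and 14026 genes passed a filter on low counts. All 8 macrophage markers listed had counts, with a summed level of 9817 to 10263 CPM (counts scaled to a common library size) in LPS+BHB libraries, 8323 to 9541 CPM in LPS libraries and 18592 to 21935 CPM in control libraries. They moved both ways, with 4 called higher and 2 lower in LPS+BHB against LPS. In each treated group against control, 2 were called higher and 6 lower. The shares of all genes called are given below. Sums of other markers are given for LPS+BHB, LPS and control in turn. Markers of neutrophils and their precursors summed to 5.18 to 7.87, 2.06 to 3.66 and 5.51 to 6.28 CPM. Lymphocyte markers summed to 2.75 to 4.17, 2.44 to 3.53 and 12.3 to 12.8 CPM. Those of mast cells and basophils summed to 1.91 to 2.08, 1.06 to 1.57 and 0.375 to 1.08 CPM. Those of erythroid cells and megakaryocytes summed to 1.45 to 2.10, 0.396 to 0.839 and 1.04 to 1.38 CPM. Dendritic cell markers summed to 16.4 to 17.5 CPM in LPS+BHB, 20.1 to 24.7 CPM in LPS and 2.96 to 3.64 CPM in control, and stromal markers to 130.3 to 159 CPM in LPS+BHB, 97.7 to 108 CPM in LPS and 5.72 to 13.8 CPM in control. Most of the stromal sum in the treated groups was Pdgfrb, the platelet-derived growth factor receptor beta gene. It averaged 138 ± 11.5 CPM in LPS+BHB, 98.5 ± 3.37 CPM in LPS and 3.54 ± 0.639 CPM in control (SD, n = 3 each). In control, other stromal markers made up much of the highest sum. Fcer1a was at 0 counts in every library. The part of these markers in the results was not tested. Control replicates 2 and 3 held low counts of genes that LPS induces (1739 and 1808 counts of Acod1, against 24 in control replicate 1). Results of the members are therefore also given without them where a call differed. In bulk RNA, fewer cells of a type and less RNA per cell cannot be told apart.

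When BHB was added to LPS, 6 of 8 members rose and 0 fell, Egr3 and Fosb set aside. Fosl2, Fos and Egr2 rose most, and all 3 Jun genes rose by smaller amounts. Of all 14026 genes, 50.7% were called in this comparison, 26.4% higher and 24.4% lower (edgeR's quasi-likelihood test, Benjamini-Hochberg adjusted p under 0.05). With an unadjusted p under 0.05, 0 members were lower, and DESeq2 also called 0 lower. The groups did not overlap for the 6 members called, nor for 56.7% of all genes tested. The median log2 fold change was 0.85 over the 8 members and 0.01 over all genes tested. Fosb did not pass the low-count filter. Egr3 passed it only through its control libraries, where it is high, so it is left out of these counts and its values are given below as a description.

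In LPS against control, 3 of the same 8 members rose and 5 fell, where 38.4% of all genes were called higher and 41.4% lower (79.8% in all). In LPS+BHB against control, 3 rose and 4 fell, where 38.0% were called higher and 40.4% lower (78.4% in all). The median log2 fold change over the 8 members was -1.78 in LPS against control and 0.07 in LPS+BHB against control, and over all genes tested -0.06 in both. Scaling by library totals alone, with no TMM factor, moved the median of all genes to -0.34 in LPS against control and to -0.38 in LPS+BHB against control. That scaling split the calls into 4283 higher and 7084 lower, against 5390 and 5801 with TMM, in LPS against control. It gave 3922 and 7366, against 5328 and 5662 with TMM, in LPS+BHB against control. Every call of a member, and its direction, was the same under that scaling, although 5 small log2 fold changes moved by over 1.5 times. The called ones were Jun in LPS+BHB against control (-0.61, against -0.28 with TMM), and Jund in LPS against control (0.27, against 0.54), in LPS+BHB against control (0.37, against 0.70) and in LPS+BHB against LPS (0.10, against 0.15). The value of Fosl1 in LPS+BHB against control, not called under either scaling, was 0.10, against 0.42 with TMM. Groups without overlap were seen for 8 of the 8 members in LPS against control, beside 82.7% of all genes tested, and for 7 in LPS+BHB against control, beside 80.2%. The 3 comparisons share libraries and are not independent.

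**Figure D1:**
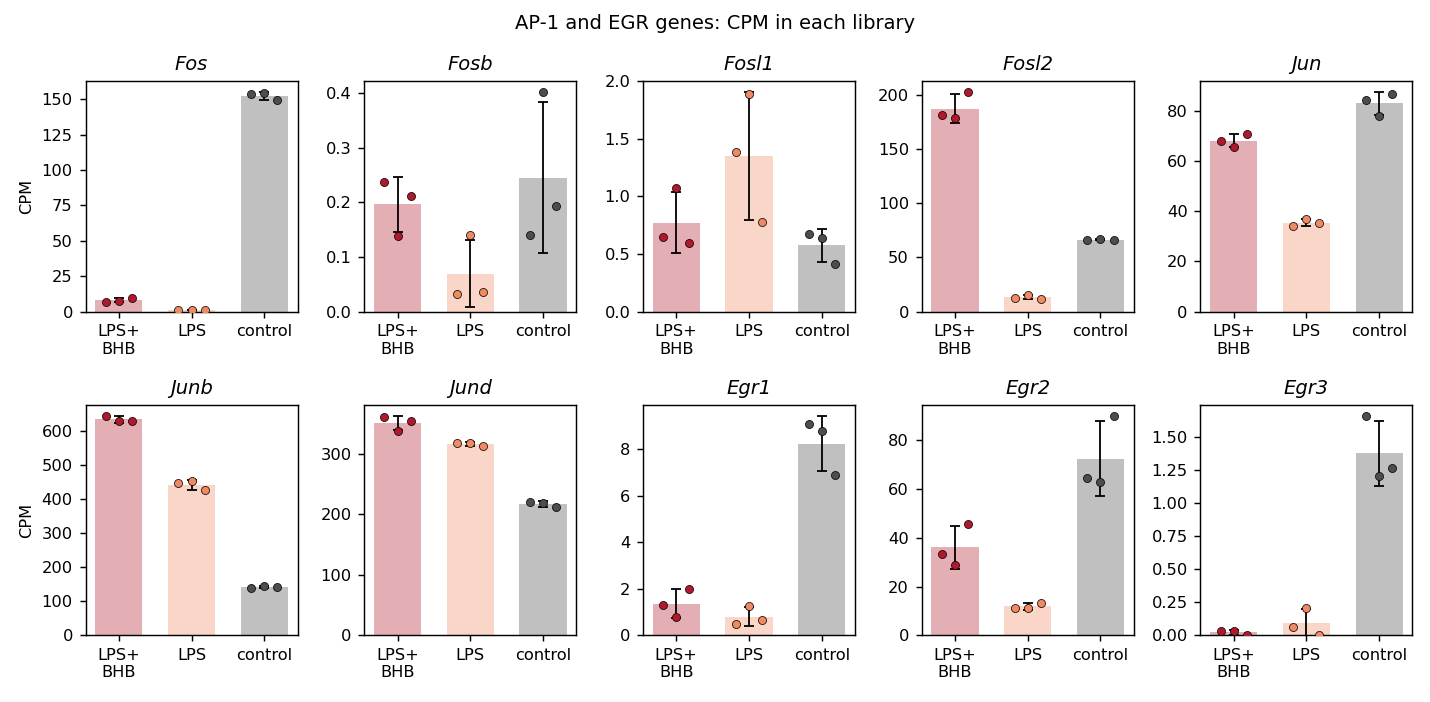
CPM of the 10 genes in each library, by group (LPS+BHB, LPS, control); points are libraries, bars are means and error bars are SD over 3 libraries, and each panel has its own linear axis from 0. Fosl2 reached its highest level with LPS+BHB (178 to 202 CPM), Fos, Jun, Egr1, Egr2 and Egr3 their highest in control, and Junb and Jund were above control in both treated groups.

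Fosl2, also called Fra-2, is a Fos protein that lacks the strong activation domain of Fos (chromosome 5, 32135801 to 32157842, GRCm38, plus strand). It was at 181, 178 and 202 CPM in the LPS+BHB libraries, 12.7, 15.1 and 11.5 CPM in the LPS libraries, and 65.9, 66.8 and 66.3 CPM in the control libraries. The 3 groups did not overlap, with LPS+BHB highest and LPS lowest. Fosl2 was 14.2-fold higher in LPS+BHB than in LPS (edgeR's log2 fold change 3.83, SE 0.08, adjusted p = 1.53e-17), and only 48 of the 14026 genes had a higher log2 fold change. It fell by 2.34 on the log2 scale in LPS against control (SE 0.08, adjusted p = 9.04e-16 by edgeR) and was 2.82-fold higher in LPS+BHB than in control (adjusted p = 7.00e-14). Its order, LPS+BHB over control over LPS, therefore differed between all neighbours by the pairwise tests.

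Fos, the founding member of the family and the usual marker of a recent stimulus (chromosome 12, 85473890 to 85477273, plus strand), showed another order. It was at 6.88, 7.85 and 9.71 CPM in LPS+BHB, 1.48, 1.19 and 1.06 CPM in LPS, and 154, 154 and 149 CPM in control. Control libraries were far above both treated groups, and LPS+BHB libraries lay between. Fos was 6.49-fold higher in LPS+BHB than in LPS (edgeR's log2 fold change 2.70, SE 0.15, adjusted p = 8.19e-12). It was 122-fold lower in LPS than in control (edgeR's log2 fold change -6.93, SE 0.11, adjusted p = 3.39e-21), and 54 of 14026 genes had a lower log2 fold change there. With BHB it was still 18.7-fold lower than in control (edgeR's log2 fold change -4.23, SE 0.09, adjusted p = 8.68e-20).

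Fosb and Fosl1 (Fra-1), the remaining Fos genes, had few counts. Fosb (chromosome 7, 19302696 to 19310051, minus strand) had 7, 4 and 6 counts in LPS+BHB, 1, 4 and 1 in LPS, and 5, 15 and 7 in control. The ratio of LPS+BHB to LPS was 2.85 (95% counting interval 1.07 to 8.84), the ratio of LPS to control was 0.278 (0.0939 to 0.688), and that of LPS+BHB to control was 0.793 (0.406 to 1.51). These intervals cover counting error only. With no filter on low counts, no comparison of Fosb passed by edgeR (adjusted p = 0.292 in LPS+BHB against LPS, 0.102 in LPS against control and 0.791 in LPS+BHB against control).

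Fosl1 (chromosome 19, 5447547 to 5455946, plus strand) was at 0.644, 1.08 and 0.600 CPM in LPS+BHB, 1.39, 1.89 and 0.778 CPM in LPS, and 0.676, 0.642 and 0.414 CPM in control. The LPS libraries lay above the control libraries, and the LPS+BHB libraries overlapped both. Its rise with LPS against control was 1.22 on the log2 scale (SE 0.40, adjusted p = 0.00834 by edgeR). That call was lost without LPS replicate 2 (log2 fold change 0.92, adjusted p = 0.0680) and without control replicates 2 and 3 (1.00, adjusted p = 0.136). In LPS+BHB against LPS its log2 fold change was -0.80 (SE 0.39, adjusted p = 0.0994 by edgeR), and without LPS replicate 3 it passed as a fall (-1.09, adjusted p = 0.0319). In LPS+BHB against control its log2 fold change was 0.42 (SE 0.42, adjusted p = 0.361 by edgeR). On the other strand, Ccdc85b covers 57.2% of the exonic bases of Fosl1, and it had 144, 148 and 100 counts in LPS+BHB, 71, 62 and 40 in LPS, and 687, 736 and 711 in control. Without the strand setting of the counting, reads from the shared bases cannot be told apart.

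**Figure D2:**
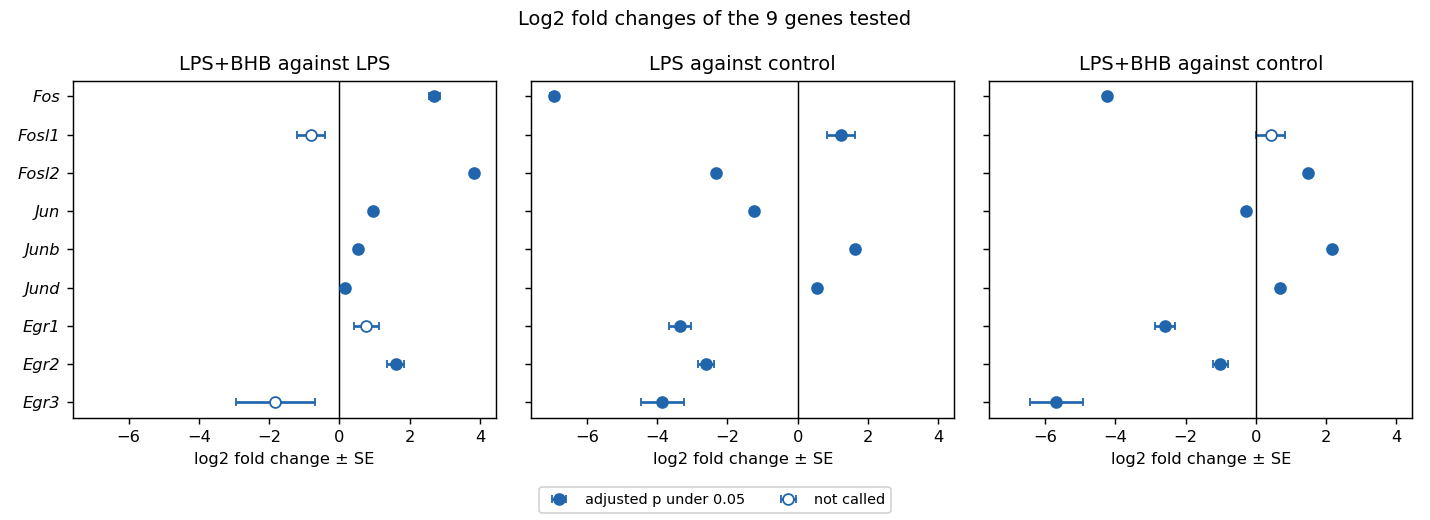
Log2 fold changes (horizontal axis, ± SE) of the 9 genes tested, in LPS+BHB against LPS, LPS against control and LPS+BHB against control; filled points had an adjusted p under 0.05 by edgeR, and Egr3 was fitted only through its control libraries. In LPS+BHB against LPS the 6 filled points lie right of 0, from Jund at 0.15 to Fosl2 at 3.83, and in LPS against control the points run from -6.93 for Fos to 1.64 for Junb.

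Jun, the classical partner of Fos in AP-1 (chromosome 4, 95049034 to 95052222, minus strand), was at 67.9, 65.5 and 70.7 CPM in LPS+BHB, 33.9, 36.7 and 35.4 CPM in LPS, and 84.2, 77.8 and 86.5 CPM in control. The groups did not overlap, and LPS+BHB lay closer to control than to LPS. Jun was 1.93-fold higher in LPS+BHB than in LPS (edgeR's log2 fold change 0.94, SE 0.06, adjusted p = 2.66e-11). It fell by 1.23 on the log2 scale in LPS against control (SE 0.06, adjusted p = 3.23e-14) and by 0.28 in LPS+BHB against control (SE 0.06, adjusted p = 9.30e-05 by edgeR).

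Junb, which activates transcription less strongly than Jun and can restrain it, had the highest mean level per kilobase of exon among the members in both treated groups, although its mean with LPS (193 ± 6.38 CPM per kilobase) was close to that of Jund (189.7 ± 1.94; SD, n = 3 each) and the libraries of these genes overlapped (chromosome 8, 84974484 to 84978718, minus strand). It was at 646, 630.0 and 629 CPM in LPS+BHB, 449, 455 and 427 CPM in LPS, and 138, 145 and 143 CPM in control. All LPS+BHB libraries were above all LPS libraries, and these were above all control libraries. Junb rose by 0.52 on the log2 scale in LPS+BHB against LPS (SE 0.04, adjusted p = 1.41e-09 by edgeR), by 1.64 in LPS against control (SE 0.04, adjusted p = 1.46e-18) and by 2.16 in LPS+BHB against control (SE 0.04, adjusted p = 2.20e-20).

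Jund, the Jun gene that is typically expressed at a steady level in resting cells (chromosome 8, 70698949 to 70700616, plus strand), had smaller log2 fold changes than Junb in each comparison. It was at 362, 339 and 354 CPM in LPS+BHB, 319, 318 and 313 CPM in LPS, and 220.4, 218 and 212 CPM in control, in the same order as Junb with no overlap. Its rise of 0.15 in LPS+BHB against LPS was the smallest called among the members (SE 0.04, adjusted p = 0.00409 by edgeR), and 5377 of 14026 genes had a higher log2 fold change. By library totals alone it was 0.10 (adjusted p = 0.0450). It rose by 0.54 in LPS against control (SE 0.04, adjusted p = 1.17e-10) and by 0.70 in LPS+BHB against control (SE 0.04, adjusted p = 2.05e-12 by edgeR). The antisense gene Gm11175, whose symbol is not among those counted, covers 52.6% of the exonic bases of Jund. Its reads cannot be told from those of Jund without strand. Junos covers 7.28% of the exonic bases of Jun and Prdx2 covers 7.52% of those of Junb.

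Egr2, which macrophages and other myeloid cells use (chromosome 10, 67535475 to 67542188, plus strand), was the EGR gene with the most counts. It was at 33.4, 28.9 and 45.7 CPM in LPS+BHB, 11.1, 11.02 and 13.4 CPM in LPS, and 64.4, 62.8 and 89.9 CPM in control. The groups did not overlap, and replicate 3 was the highest library in each of them. Egr2 was 3.03-fold higher in LPS+BHB than in LPS (edgeR's log2 fold change 1.60, SE 0.24, adjusted p = 0.00128). It fell by 2.61 on the log2 scale in LPS against control (SE 0.24, adjusted p = 3.26e-05) and by 1.01 in LPS+BHB against control (SE 0.21, adjusted p = 0.00371 by edgeR).

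Egr1, the best known serum- and stress-induced EGR gene (chromosome 18), was at 1.29, 0.799 and 2.01 CPM in LPS+BHB, 0.495, 1.26 and 0.672 CPM in LPS, and 9.07, 8.78 and 6.87 CPM in control. The treated groups overlapped each other and both lay below control. Its log2 fold change in LPS+BHB against LPS was 0.76 (SE 0.35, adjusted p = 0.0859 by edgeR). It passed without LPS replicate 2 (1.22, adjusted p = 0.0118), without LPS+BHB replicate 2 (1.03, adjusted p = 0.0166) and with no filter on low counts (0.75, adjusted p = 0.0269), and it was at 0.38 without LPS+BHB replicate 3 (adjusted p = 0.415) and 0.49 without LPS replicate 1 (adjusted p = 0.301). Egr1 was 10.2-fold lower in LPS than in control (edgeR's log2 fold change -3.35, SE 0.31, adjusted p = 1.20e-08) and 6.02-fold lower in LPS+BHB than in control (-2.59, SE 0.28, adjusted p = 1.60e-07).

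Egr3, an EGR gene best known from lymphocytes and muscle spindles (chromosome 14, 70077203 to 70082614, plus strand), had 1, 1 and 0 counts in LPS+BHB, 2, 6 and 0 in LPS, and 59, 45 and 46 in control. Both treated groups lay below control and overlapped each other. The counts of LPS+BHB were 59.5-fold lower than those of control per library size (counting interval 16.2 to 496), and those of LPS were 15.0-fold lower (7.41 to 35.3). The fitted log2 fold change in LPS against control was -3.85, and -5.18 without LPS replicate 2, which held 6 of the 8 counts. These are descriptions, since Egr3 entered the fit only through control. Between the treated groups the ratio of LPS+BHB to LPS was 0.252, with an interval of 0.0260 to 1.26 that includes 1 (adjusted p = 0.190 by edgeR), so no difference was detectable at this depth. Egr3 was the only EGR gene with a log2 fold change below 0 in LPS+BHB against LPS, and it had 2 counts and 8 counts in these groups.

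Levels of different genes were compared as CPM per kilobase of exon, from the union of annotated exons (GENCODE M21). In the Fos family the leading gene differed between groups. Fosl2 made up 83.3% of the summed level in LPS+BHB (82.4 to 85.1% over 3 libraries), 53.5% in LPS (49.95 to 58.7%) and 9.53% in control (9.39 to 9.71%). Fos made up 14.9% in LPS+BHB, 21.0% in LPS and 90.03% in control. For Fos the ranges were 13.3 to 16.3% in LPS+BHB, 16.7 to 24.0% in LPS and 89.96 to 90.12% in control, so neither share overlapped between groups. Fosl1, with the overlap named above, made up 1.66% in LPS+BHB, 25.2% in LPS and 0.394% in control. The summed Fos family level had a median of 22.3 CPM per kilobase in LPS+BHB, 2.63 in LPS and 72.5 in control, so the large Fosl1 share with LPS stood against a low sum.

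The Jun family exceeded the others in all groups, with summed medians of 508 CPM per kilobase in LPS+BHB, 397 in LPS and 218 in control. Junb made up 54.3% of it in LPS+BHB, 49.0% in LPS and 28.3% in control, and Jund made up 41.5% in LPS+BHB, 48.2% in LPS and 59.7% in control. Jun itself made up 4.20% in LPS+BHB, 2.82% in LPS and 11.9% in control. In control macrophages the level of Fos, at 64.8 ± 1.14 CPM per kilobase, was near that of Junb, at 61.7 ± 1.51 (SD, n = 3), whereas in LPS+BHB they were at 3.46 ± 0.609 and 276 ± 4.15, and in LPS at 0.529 ± 0.0922 and 193 ± 6.38. Egr2 made up 97.2% of the EGR sum in LPS+BHB, 94.5% in LPS and 90.5% in control. That sum had a median of 10.1 CPM per kilobase in LPS+BHB, 3.57 in LPS and 21.3 in control. Shares within a family add up to the whole, so a share can move without a change of that gene.

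**Figure D3:**
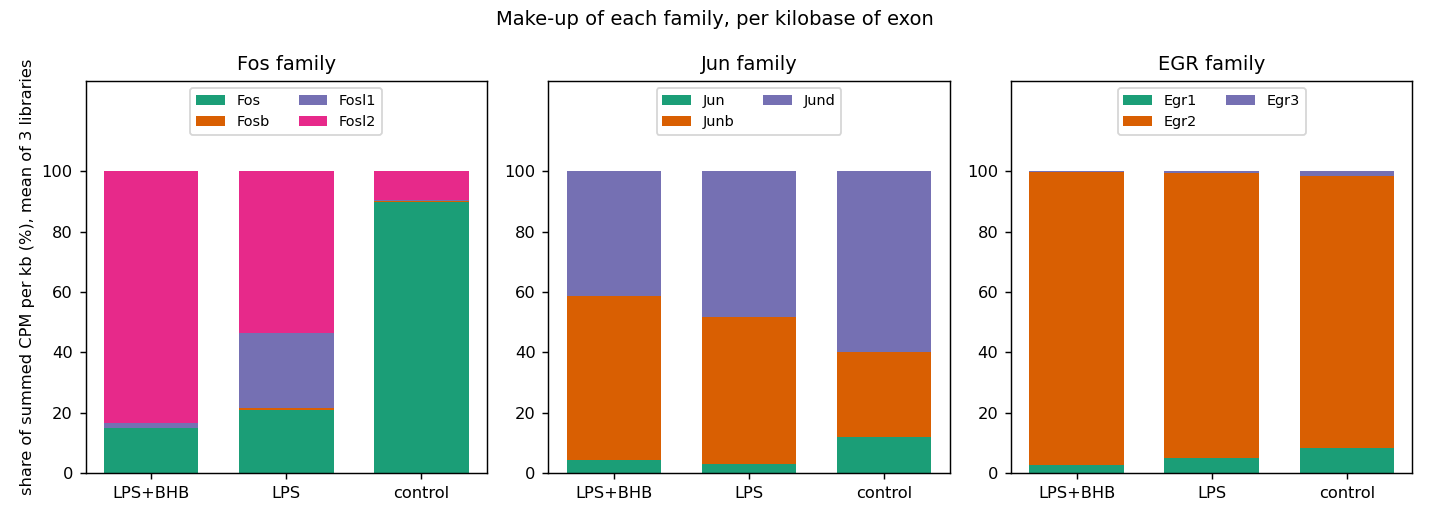
Share of each gene in the summed CPM per kilobase of exon of its family (vertical axis, %; mean of 3 libraries), for the Fos, Jun and EGR families in LPS+BHB, LPS and control. Fos holds 90.03% of the Fos family in control and 14.9% in LPS+BHB, where Fosl2 holds 83.3%, while Egr2 holds over 90% of the EGR family in each group.

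Counts of the related lists stand beside the shares of all genes given above, which in LPS+BHB against LPS were 26.4% higher and 24.4% lower. Whether a list differed from other genes was not tested. Basic leucine zipper partners of AP-1 moved both ways. Of 12 listed and tested, 3 rose and 6 fell in LPS+BHB against LPS (median log2 fold change -0.16). The genes with the smallest p were Batf, which pairs with Jun proteins and lacks an activation domain of its own, the small Maf gene Mafk, and Jdp2, whose protein pairs with Jun and represses AP-1 targets. Batf averaged 38.0 ± 1.63 CPM in LPS+BHB, 76.3 ± 3.79 CPM in LPS and 4.87 ± 0.353 CPM in control (SD, n = 3 each). Mafk averaged 36.4 ± 3.85 CPM in LPS+BHB, 74.2 ± 4.64 CPM in LPS and 54.7 ± 1.82 CPM in control. Jdp2 went the other way, at 401 ± 4.80 CPM in LPS+BHB, 195 ± 16.5 CPM in LPS and 7.86 ± 1.56 CPM in control. The log2 fold changes in LPS+BHB against LPS were -1.01 for Batf, -1.02 for Mafk and 1.04 for Jdp2 (adjusted p between 3.59e-11 and 7.81e-07 by edgeR). In LPS against control 7 of the 12 rose and 4 fell, and in LPS+BHB against control 6 rose and 6 fell, with medians of 0.53 and 0.15. Batf3 is counted as a fall in both, at 0.153 CPM in LPS+BHB, 0.103 CPM in LPS and 3.95 CPM in control. Like Egr3, it entered the fit only through control, so its falls are descriptions.

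Genes of kinases that signal to immediate early promoters, and of factors that act at them, numbered 28. Of these, 20 rose and 2 fell in LPS+BHB against LPS, beside 26.4% of all genes higher and 24.4% lower (median log2 fold change 0.31, and 0.01 over all genes). Elk3, an ETS factor that joins serum response factor at CArG boxes, averaged 243 ± 20.1 CPM in LPS+BHB, 21.2 ± 1.89 CPM in LPS and 69.4 ± 1.23 CPM in control (log2 fold change 3.52 in LPS+BHB against LPS, SE 0.07, adjusted p = 3.55e-18 by edgeR). Rps6ka5, which encodes the kinase MSK1 that phosphorylates histone H3 and CREB at such promoters, averaged 113 ± 3.41 CPM in LPS+BHB, 20.7 ± 1.59 CPM in LPS and 12.3 ± 1.10 CPM in control. Map3k5, which encodes the stress kinase ASK1, averaged 145 ± 9.66 CPM in LPS+BHB, 57.8 ± 2.46 CPM in LPS and 38.0 ± 0.899 CPM in control. In LPS against control, where 38.4% of all genes were higher and 41.4% lower, 15 of these genes rose and 9 fell (median 0.21), and in LPS+BHB against control 19 rose and 5 fell (median 0.35).

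Nab1 and Nab2, whose proteins bind EGR factors and repress them, were the only tested genes among 4 listed EGR corepressors and relatives, as Egr4 and Wt1 had 0 counts in every library. Both rose in LPS+BHB against LPS, by 0.49 (SE 0.05) and 0.59 (SE 0.06) on the log2 scale (adjusted p = 8.67e-08 and 7.83e-08 by edgeR). Nab2, itself an EGR target and also among the targets below, averaged 45.6 ± 1.01 CPM in LPS+BHB, 30.3 ± 2.13 CPM in LPS and 81.8 ± 3.03 CPM in control, the same order of groups as Egr2. Nab1 averaged 79.8 ± 2.97 CPM in LPS+BHB, 56.9 ± 1.64 CPM in LPS and 64.2 ± 1.66 CPM in control. Both fell in LPS against control. In LPS+BHB against control Nab1 rose and Nab2 fell.

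Other immediate early genes split, with 15 of 30 higher and 9 lower in LPS+BHB against LPS (median log2 fold change 0.38, or 0.34 over 29 genes without Npas4, which had 0 counts in the LPS libraries). Ier3, a survival factor gene, rose by 1.52 (SE 0.06), Sgk1, which encodes a serum- and glucocorticoid-regulated kinase, by 0.81 (SE 0.05), and Zfp36, which destabilises cytokine transcripts, by 1.21 (SE 0.06; adjusted p between 2.35e-14 and 7.22e-12 by edgeR). Zfp36 alone of these fell in LPS against control, at 198 ± 22.3 CPM in LPS+BHB, 85.5 ± 0.890 CPM in LPS and 165 ± 4.59 CPM in control. In LPS against control 19 of the 30 rose and 9 fell (median 1.24), and in LPS+BHB against control 20 rose and 5 fell (median 1.12). The 30 include Npas4, which entered the fit only through its control libraries, so its part in these counts and medians is a description.

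Among 20 genes often given as AP-1 or EGR targets, 13 rose and 4 fell in LPS+BHB against LPS (median log2 fold change 0.37). Vegfa, the angiogenic growth factor gene, averaged 289 ± 10.1 CPM in LPS+BHB, 60.6 ± 0.937 CPM in LPS and 117 ± 2.90 CPM in control, the order of groups seen for Fosl2. Pdgfb, the gene of a platelet-derived growth factor chain, averaged 81.2 ± 12.8 CPM in LPS+BHB, 2.89 ± 0.594 CPM in LPS and 124 ± 4.41 CPM in control, the order seen for Egr2. Plaur, the urokinase receptor gene, went against both, at 137 ± 12.2 CPM in LPS+BHB, 255 ± 7.12 CPM in LPS and 64.2 ± 4.43 CPM in control. In LPS against control 10 rose and 9 fell (median 0.28), and in LPS+BHB against control 11 rose and 8 fell (median 1.00). Whether AP-1 or EGR proteins act on these genes was not measured.

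**Figure D4:**
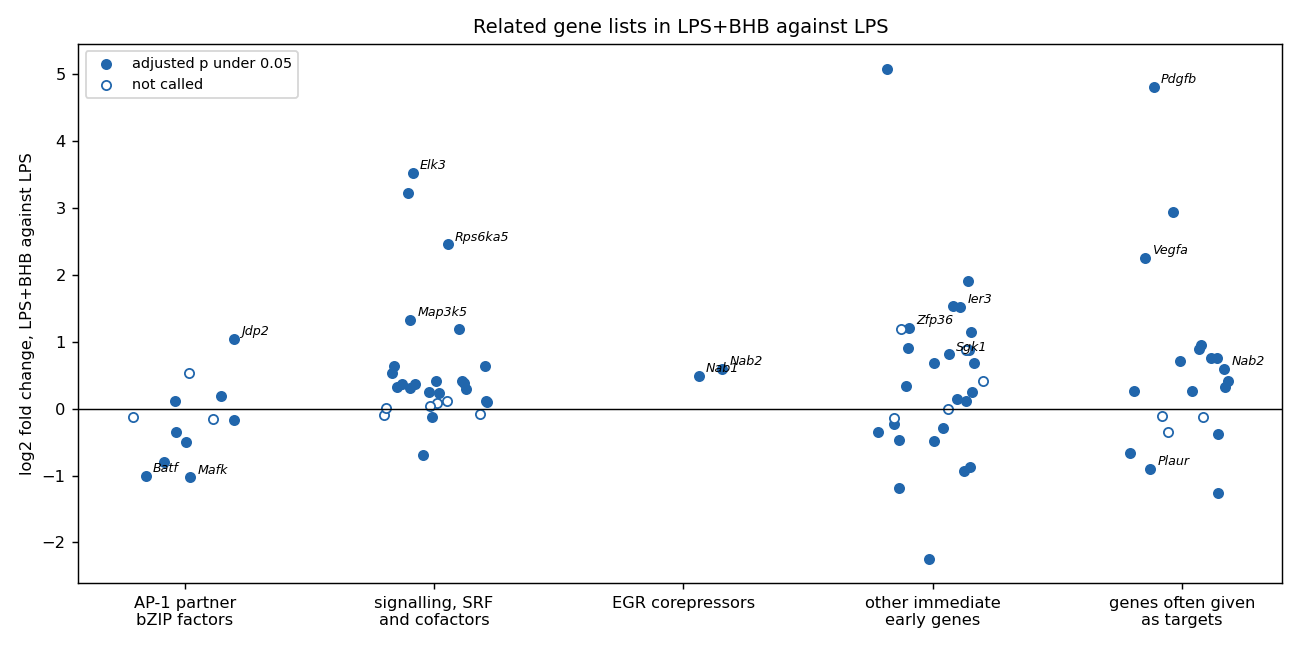
Log2 fold change in LPS+BHB against LPS (vertical axis) of each tested gene in 5 related lists; filled points had an adjusted p under 0.05 by edgeR, horizontal position within a list has no meaning, and Npas4, with 0 counts in LPS, is not drawn. Of the signalling genes 20 of 28 lie above 0 with a call, led by Elk3 at 3.52, and Batf and Mafk lie near -1.01 among the AP-1 partners.

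The genes most like a member were those with the smallest root mean square difference of log2 CPM, each gene centred on its own mean, over the 9 libraries, among the 9323 genes averaging 5 CPM or more. For Fosl2 they were Mxi1 (0.25 on the log2 scale), Elk3 (0.27) and Prkar2b (0.30). Mxi1, a MAX partner gene, averaged 99.4 ± 13.2 CPM in LPS+BHB, 7.56 ± 0.968 CPM in LPS and 50.5 ± 4.88 CPM in control. For Fos they were Lfng (0.29), Arrdc3 (0.36) and Plekhg3 (0.39), all highest in control. Arrdc3 averaged 14.4 ± 1.71 CPM in LPS+BHB, 1.83 ± 0.439 CPM in LPS and 155 ± 1.27 CPM in control.

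For Egr2 the nearest were Myo1e (0.15), Cnn2 (0.20) and Klf2 (0.21), a Krüppel-like factor gene that averaged 14.6 ± 2.88 CPM in LPS+BHB, 5.08 ± 0.741 CPM in LPS and 24.4 ± 2.50 CPM in control. The nearest gene was Dennd1c for Jun (0.07), Cdyl for Junb (0.06), Rdx for Jund (0.03), Ifrd2 for Fosl1 (0.28), Kifc3 for Egr1 (0.28) and Bmp2 for Egr3 (0.37). With 3 groups, likeness over 9 libraries mostly reflects the 3 group means. Egr3 had few counts in both treated groups, so its log2 CPM there rests largely on the small count added before taking logarithms.

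**Figure D5:**
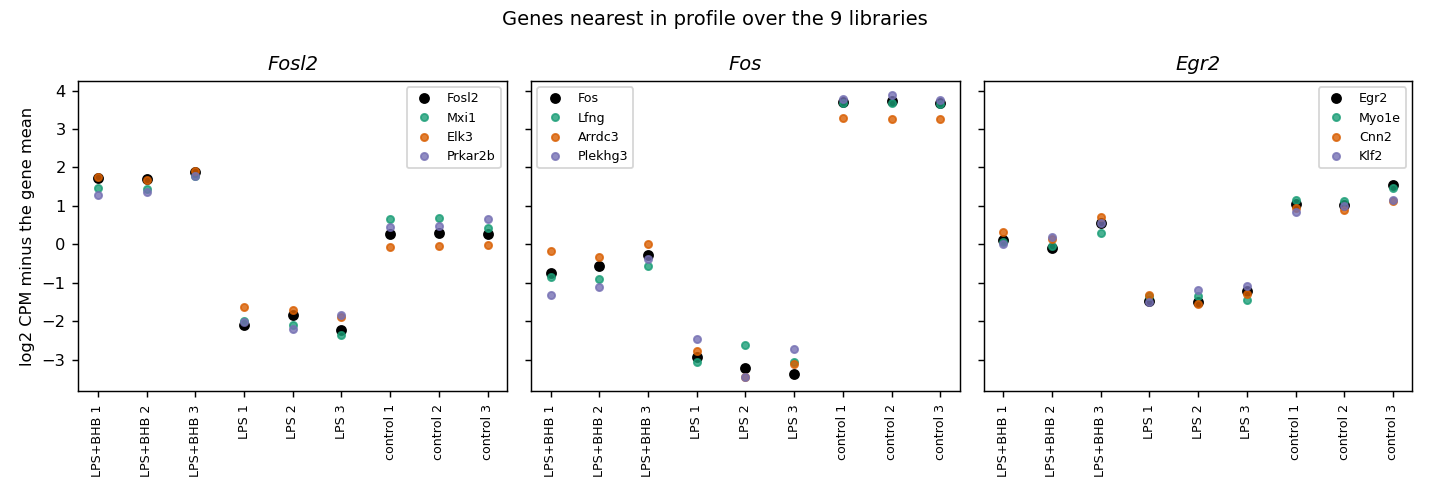
Log2 CPM minus the mean of each gene (vertical axis) in the 9 libraries for Fosl2, Fos and Egr2 (black) and the 3 genes nearest to each in profile (colours). Fosl2 and its neighbours are highest in LPS+BHB and lowest in LPS, Fos and its neighbours are highest in control, and the neighbours of Fosl2 lie within a root mean square difference of 0.30 of it.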

How the data were processed

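Per the submitters' processing notes, reads were aligned with HISAT2 to mm10; the sources used here give no counting tool, annotation or strand setting. The deposited table holds the authors' raw counts per gene symbol, with each of its 9 columns matched to a library by title. Genes were filtered with filterByExpr (minimum count 10), which kept 14026 genes with 99.96% of the counts. After TMM scaling, edgeR 4.0.16 (R 4.3.3) fitted all 9 libraries by robust quasi-likelihood with group as the only term. Two-sided p-values were adjusted by Benjamini-Hochberg over all genes. CPM use the TMM-adjusted library total, with SD over 3 libraries. The SE of a log2 fold change is its size divided by the square root of the F statistic and is approximate for low counts. Ratios of low counts have exact binomial intervals. The test was checked on simulated data in which only a small part of the genes changed. That check does not cover the scaling where as many genes move as here. Replicates differed by more than sampling noise (chi-square per degree of freedom 3.10 to 10.4). The genes named are the members, the 3 genes with the smallest p in LPS+BHB against LPS in each related list, and the 3 nearest in profile to a member; any other was chosen after its values were seen. The members and lists were chosen with earlier results of these data known. Exon lengths, coordinates and overlaps are from GENCODE M21 (GRCm38, the build mm10 names).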

Additional observations from a re-analysis of the deposited data

How the results depend on the processing

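Alternatives were DESeq2's size factors, library totals alone, no low-count filter, DESeq2 1.42.0, a replicate block, the 6 libraries compared, each library left out in turn, and control replicates 2 and 3 left out together. Of the members' values under these alternatives, 425 kept their direction and their side of the threshold, 4 newly passed and 2 no longer passed. The report gives all 6 that changed, which are of Fosl1 and Egr1, and no member changed sign. Of the 425, 15 values in LPS+BHB against LPS and 16 in each comparison with control are of Egr3. Egr3 entered the fit only through control, so its values lend no support. The number of members called lower in LPS+BHB against LPS ranged from 0 to 1 when a library was left out, the 1 being Fosl1 without LPS replicate 3. Counts of genes called stayed within 1.5 times under every alternative. Over all genes, same-numbered libraries did not deviate together (correlations of -0.0166 to 0.0392). Whether the numbers pair the samples is not labelled and was not tested. With a replicate block 3647 genes were higher and 3363 lower in LPS+BHB against LPS, 5348 and 5788 in LPS against control, and 5279 and 5629 in LPS+BHB against control, and no call of a member changed. The SE of Egr2 in LPS+BHB against LPS was 0.08 with the block, against 0.24 without it. That of Egr1 was 0.40, against 0.35, and that of Fos 0.16, against 0.15. Egr3 could not be tested in the fit of the 6 treated libraries, where it did not pass the filter. Depth limits Fosb, Fosl1, Egr1 and Egr3, which had few counts in the treated groups.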
